A study of Mus musculus with 8 samples.

Results

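The phospholipase C genes described here are 10 of the 24421 gene symbols counted in the RNA of naive CD4+ T cells: the beta isoforms Plcb1, Plcb2, Plcb3 and Plcb4, the gamma isoforms Plcg1 and Plcg2, the delta isoforms Plcd1 and Plcd3, and the catalytically inactive relatives Plcl1 and Plcl2. They were chosen by symbol, as a family, with the levels and differences of these same libraries already known. Their differences between the titles are therefore given as a description, and the count of members past a test stands once, beside the share of all genes, with nothing read from it. The cells came from the spleens of male C57BL/6 mice aged 6 to 8 weeks and were purified with a Miltenyi naive T cell kit. There were 4 libraries titled E1KO, for mice whose floxed Pcbp1 is removed by Cre under Cd4 control (Pcbp1fl/flCd4-Cre), and 4 titled E1WT, for wild-type mice. The genotype field writes the wild type as carrying Cd4-Cre with an intact Pcbp1 (Pcbp1+/+Cd4-Cre), while other label text calls it only wild type. PCBP1 (hnRNP E1) belongs to the RNA-binding proteins with KH domains and prefers C-rich RNA. Cd4-Cre acts from thymic development onwards in all T cells that pass through a CD4-expressing stage, so the deletion is neither confined to naive cells nor begun in them.

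Phospholipase C enzymes cleave the membrane lipid PIP2 into IP3, which opens calcium channels of the endoplasmic reticulum, and diacylglycerol, which stays in the membrane and recruits protein kinase C and RasGRP proteins. Beta isoforms are switched on by G proteins, gamma isoforms by tyrosine kinases below antigen and Fc receptors, and delta isoforms by calcium. In T cells PLC-gamma-1 is the isoform that the antigen receptor uses, through the adaptors LAT and SLP-76. The PLC-like proteins keep the family's architecture without the catalytic activity and bind IP3.

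Genotype field and title disagree in each of the 8 samples, and the titles serve as names here. Pcbp1 averaged 39.7 ± 1.57 CPM in E1KO-titled libraries and 224 ± 16.3 CPM in E1WT-titled ones (n = 4 each, SD), with a log2 fold of -2.49 ± 0.07 (SE), which goes with the titles. CPM here is the count scaled to a fixed library total of gene counts, after TMM scaling. Libraries held 28264655 to 36738202 gene counts. Markers of CD4+ T cells (Cd3d, Cd3e, Cd3g, Cd4, Lef1, Tcf7, Ccr7 and Il7r) summed to 4508 to 4708 CPM in E1KO-titled libraries and 5485 to 5566 CPM in E1WT-titled ones. Cd8a and Cd8b1 summed to 20.3 to 27.9 CPM in E1KO-titled libraries and 25.4 to 31.0 CPM in E1WT-titled ones. All mice are labelled male, yet Xist, the RNA of the inactive X chromosome, stood at 397 ± 30.9 CPM in E1KO-titled libraries and 1.51 ± 1.09 CPM in E1WT-titled ones. Ddx3y, a gene of the Y chromosome, averaged 108 CPM over the E1WT-titled group, but it was also read in the E1KO-titled group, at a mean of 54.3 CPM. High Xist and Y-linked RNA thus occurred together under the E1KO title. Whether these libraries mix RNA of both sexes was not tested. Differences between the titles cannot be told apart from a difference in sex or in such a mixture. In bulk RNA, fewer cells of a type and less RNA per cell cannot be told apart either.

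The promoters of the 4 genes whose levels separated the titles are shown, the lower pair Plcb2 and Plcg1 first and the higher pair Plcb4 and Plcg2 after it, so that their base composition can be compared. Each runs 5′ to 3′ on the gene's own strand, from 250 bases before to 50 after the start in RefSeq (GRCm38.p6), at chr2:118728389-118728688 (minus strand) for Plcb2, chr2:160731060-160731359 (plus) for Plcg1, chr2:135659297-135659596 (plus) for Plcb4 and chr8:117498025-117498324 (plus) for Plcg2. Capitals mark matches, on either strand, to a GC box (GGGCGG), an ETS core (CCGGAA), an E-box (CACGTG) or a C-rich run (CCCTCCC). Overlapping matches run together.
Plcb2: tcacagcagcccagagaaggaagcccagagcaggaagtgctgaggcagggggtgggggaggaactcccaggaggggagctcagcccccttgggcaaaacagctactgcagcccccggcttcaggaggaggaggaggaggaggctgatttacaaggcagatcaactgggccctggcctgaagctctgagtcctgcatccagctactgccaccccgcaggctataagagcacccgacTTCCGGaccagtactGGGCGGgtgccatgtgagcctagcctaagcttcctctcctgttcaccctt
Plcg1: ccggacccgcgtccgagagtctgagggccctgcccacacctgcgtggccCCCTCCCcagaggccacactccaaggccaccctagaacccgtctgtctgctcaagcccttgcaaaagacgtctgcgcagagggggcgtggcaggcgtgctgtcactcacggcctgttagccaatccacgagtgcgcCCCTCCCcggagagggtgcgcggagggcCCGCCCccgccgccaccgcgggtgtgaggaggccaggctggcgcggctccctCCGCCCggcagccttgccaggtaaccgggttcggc
Plcb4: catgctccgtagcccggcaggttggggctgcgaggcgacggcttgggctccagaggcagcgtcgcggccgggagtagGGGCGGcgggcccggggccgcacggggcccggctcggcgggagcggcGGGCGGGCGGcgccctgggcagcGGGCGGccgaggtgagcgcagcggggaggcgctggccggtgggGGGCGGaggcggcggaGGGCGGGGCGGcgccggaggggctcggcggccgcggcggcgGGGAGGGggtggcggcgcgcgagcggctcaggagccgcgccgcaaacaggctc
Plcg2: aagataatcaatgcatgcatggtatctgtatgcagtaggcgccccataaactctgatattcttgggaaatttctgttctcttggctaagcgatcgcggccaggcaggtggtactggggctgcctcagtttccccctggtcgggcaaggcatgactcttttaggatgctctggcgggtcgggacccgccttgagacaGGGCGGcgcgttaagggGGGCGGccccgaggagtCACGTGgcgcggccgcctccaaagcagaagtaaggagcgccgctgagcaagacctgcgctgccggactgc

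Both pairs held GC boxes. The Plcb2 promoter had 1 GC box and the only ETS core among the 11 member promoters, with 5 CpG dinucleotides and 61.7% G and C. The Plcg1 promoter had 2 GC boxes, 2 C-rich runs and 27 CpG dinucleotides at 72.0% G and C. The Plcb4 promoter was the most GC-rich of the 11, at 84.0% with 50 CpG dinucleotides, 7 GC boxes and 1 C-rich run. The Plcg2 promoter had 2 GC boxes, the only E-box of the 11 and 21 CpG dinucleotides at 60.0% G and C. All 32851 promoters of the same length had medians of 52.7% and 7 CpG dinucleotides.

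A RefSeq promoter was matched for 9 of the 10 members by symbol, with 2 starts each for Plcb4 and Plcd1. A GC box stood in 10 of these 11 promoters, against 35.7% of all promoters, the exception being the second Plcb4 start with 44.3% G and C. A C-rich run stood in 5 of 11, against 22.0% of all promoters. The ETS core occurred in 14.9%, the E-box in 7.15% and an AP-1 motif (TGANTCA, found once, in Plcb3) in 7.81% of all promoters. A RUNX core (TGTGGT) and a TATA box (TATAAA) matched none of the 11, against 16.8% and 13.6% of all promoters. GC boxes go with high G and C content in general, so these shares describe the sequences only.

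Within the family, Plcb2 and Plcg1 were lower and Plcb4 and Plcg2 higher in E1KO-titled libraries, and the remaining 6 members had overlapping libraries. The 2 lower members include the most abundant enzyme, Plcg1, and the most abundant beta isoform, Plcb2. All 10 members passed the filter on low counts. By the genome-wide rule, an edgeR quasi-likelihood test with a Benjamini-Hochberg adjusted p below 0.05 over 13333 genes, 2 members were higher (as were 12.2% of all genes tested) and 2 lower (11.1%). The 4 libraries of E1KO lay entirely above those of E1WT for 2 members (14.0% of all genes tested) and entirely below for 2 (12.1%). These counts come from the values that the choice of members had in view, so nothing is read from them. Of the 10 log2 folds, all taken as E1KO-titled over E1WT-titled, 7 were positive and 3 negative, with a median of 0.17 against 0.0065 over all genes tested.

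**Figure D1:**
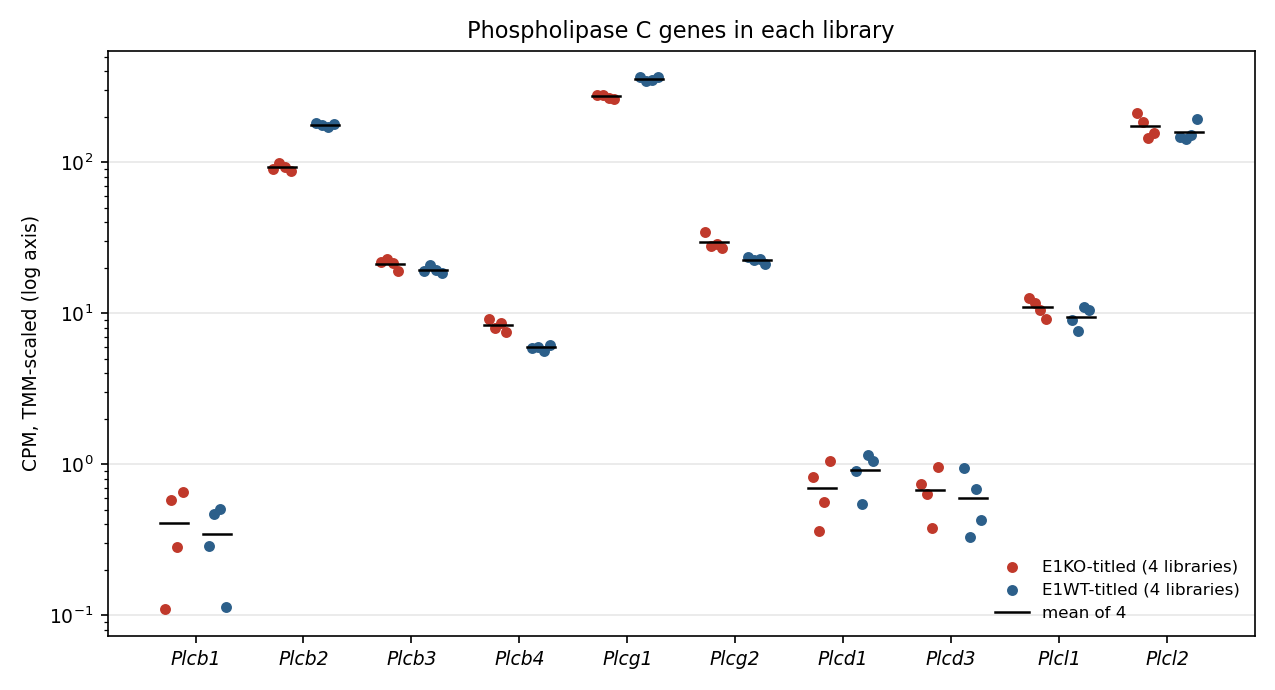
Level of each phospholipase C gene in every library in CPM (TMM-scaled, log axis), with E1KO-titled libraries in red to the left of E1WT-titled libraries in blue, and black bars for the mean of 4. Plcb2 and Plcg1 lie lower and Plcb4 and Plcg2 higher in all 4 E1KO-titled libraries, while the points of the other 6 genes overlap.

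Plcb2, the beta isoform of blood cells that responds strongly to G protein beta-gamma subunits, had the largest difference. It stood at 90.5, 98.1, 93.6 and 87.9 CPM in E1KO-titled libraries 1 to 4, against 182, 175, 171 and 179 CPM in E1WT-titled libraries 1 to 4. The highest E1KO-titled library was far below the lowest E1WT-titled one. The means were 92.5 ± 4.39 CPM in E1KO-titled libraries and 177 ± 4.65 CPM in E1WT-titled ones (n = 4 each, SD), a fold of 0.524 and a log2 fold of -0.93 ± 0.05 (SE). The counts behind these values were 2936 to 3293 reads in E1KO-titled and 4745 to 6364 reads in E1WT-titled libraries. Over 17 other settings of scaling, filter, test and libraries, the log2 fold ran between -0.96 and -0.87. Plcb2 lies on the minus strand of chromosome 2 at 118707517 to 118728438 (GRCm38, GENCODE M21), with 6597 bp of exon.

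The other beta isoforms were less abundant and did not share this direction. Plcb4, an isoform best known from neurons of the cerebellum and retina, had 9.15, 8.04, 8.57 and 7.54 CPM in E1KO-titled libraries, against 5.92, 5.97, 5.66 and 6.20 CPM in E1WT-titled libraries. The lowest E1KO-titled library was above the highest E1WT-titled one. The means were 8.33 ± 0.692 CPM in E1KO-titled libraries and 5.94 ± 0.222 CPM in E1WT-titled ones, a fold of 1.40 and a log2 fold of 0.49 ± 0.11. Plcb3, a widely expressed isoform, lay at 19.1 to 22.8 CPM in E1KO-titled libraries and 18.4 to 20.8 CPM in E1WT-titled ones, which overlap, with a log2 fold of 0.13 ± 0.08. Its exons share 22 bp with Ppp1r14b, a protein-coding gene on the other strand. Plcb1, a brain isoform, was close to the limit of detection, at 4 to 22 reads in E1KO-titled and 4 to 17 reads in E1WT-titled libraries. Its log2 fold of 0.24 ± 0.59 gives no direction, and its exons share 178 bp with the antisense gene 9630028H03Rik. Plcb1 (134786067 to 135475258) and Plcb4 (135659011 to 136014593) are neighbours on the plus strand of chromosome 2, 183752 bp apart, and 4 of the 10 members lie on that chromosome.

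Plcg1, the isoform of the T cell receptor, had the highest CPM of the family in every library and was lower in the E1KO-titled ones. It stood at 279.95, 279.9, 267 and 264 CPM in E1KO-titled libraries 1 to 4, against 365, 344, 349 and 364 CPM in E1WT-titled libraries 1 to 4. The groups did not overlap and each was tight, with a coefficient of variation of 3.12% in E1KO-titled and 2.94% in E1WT-titled libraries. The means were 273 ± 8.51 CPM in E1KO-titled libraries and 356 ± 10.5 CPM in E1WT-titled ones, a fold of 0.767 and a log2 fold of -0.38 ± 0.05. Plcg1 lies on the plus strand of chromosome 2 at 160731300 to 160775760. Its exons share 379 bp with Zhx3 on the other strand, and strand use in the counting is not given, so reads from that stretch cannot be assigned. Zhx3 was far less abundant, at 16.1 ± 3.35 CPM in E1KO-titled libraries and 20.6 ± 4.14 CPM in E1WT-titled ones (log2 fold -0.35 ± 0.17, adjusted p = 0.15 in edgeR).

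Plcg2, the gamma isoform of B cell, Fc and myeloid receptors, was higher in E1KO-titled libraries. Its values were 34.3, 27.7, 28.8 and 27.0 CPM in E1KO-titled libraries, against 23.6, 22.6, 22.7 and 21.2 CPM in E1WT-titled libraries. E1KO 1 was the highest of all 8, and the remaining E1KO-titled libraries were also above every E1WT-titled one. The means were 29.5 ± 3.33 CPM in E1KO-titled libraries and 22.5 ± 0.996 CPM in E1WT-titled ones, a fold of 1.31 and a log2 fold of 0.39 ± 0.09 that ran between 0.27 and 0.45 over the other settings. Plcg2 lies on the plus strand of chromosome 8 at 117498291 to 117635142.

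Markers of other cell types were called in both directions. The counts that follow stand beside 12.2% higher and 11.1% lower of all genes tested. Monocyte and macrophage markers were higher in 7 and lower in 1 of 13 tested, and summed to 156 to 168 CPM in E1KO-titled libraries and 77.5 to 79.1 CPM in E1WT-titled ones. Dendritic cell markers were higher in 7 of 10 (132 to 148 CPM in E1KO-titled, 96.3 to 107 CPM in E1WT-titled libraries) and NK cell markers in 6 of 7 (128 to 151 CPM in E1KO-titled, 91.4 to 100.1 CPM in E1WT-titled libraries), with Klra4 and Klra8 at 0. B cell markers were higher in 3 and lower in 2 of 12 and overlapped, at 320.1 to 338 CPM in E1KO-titled libraries and 311 to 341 CPM in E1WT-titled ones. Erythroid markers were higher in 4 of 6 (169 to 208 CPM in E1KO-titled, 62.8 to 84.5 CPM in E1WT-titled libraries), although the globin genes Hba-a1, Hba-a2, Hbb-bs and Hbb-bt are listed at 0 throughout. Platelet markers were higher in 1 of 4 (16.9 to 19.3 CPM in E1KO-titled, 10.3 to 13.8 CPM in E1WT-titled libraries), neutrophil markers lower in 3 of 9 (19.9 to 22.1 CPM in E1KO-titled, 23.2 to 25.4 CPM in E1WT-titled libraries), and stromal markers were called in neither direction in 7 (257 to 267 CPM in E1KO-titled, 249 to 262 CPM in E1WT-titled libraries). Of the stromal sum, Pecam1 alone gave 251 to 262 CPM in E1KO-titled and 239 to 255 CPM in E1WT-titled libraries. The part of all these cell types in the values of Plcg2, Plcb2 and Plcb4 was not tested.

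The calcium-activated delta isoforms were scarcely present. Plcd1 had 0.364 to 1.05 CPM in E1KO-titled libraries and 0.550 to 1.15 CPM in E1WT-titled ones, with a log2 fold of -0.37 ± 0.39. Plcd3 had 0.377 to 0.958 CPM in E1KO-titled libraries and 0.330 to 0.938 CPM in E1WT-titled ones, with a log2 fold of 0.22 ± 0.42. Together with Plcb1 they were the 3 members under 2 CPM in both titles, and a difference of the size seen in Plcg2 or Plcb4 was not detectable in them at this depth.

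Among the inactive relatives, Plcl2 was abundant and Plcl1 was not. Plcl2, known in mice as a brake on B cell receptor signalling, stood at 212, 183, 145 and 156 CPM in E1KO-titled libraries 1 to 4, against 148, 141, 152 and 194 CPM in E1WT-titled libraries 1 to 4. The groups overlapped, with E1KO 1 and E1WT 4 the highest, and the spread within each title was the widest among the 3 abundant members (coefficients of variation of 17.0% in E1KO-titled and 15.1% in E1WT-titled libraries). The means were 174 ± 29.6 CPM in E1KO-titled libraries and 159 ± 23.9 CPM in E1WT-titled ones, a log2 fold of 0.13 ± 0.12. Plcl1, first described as an IP3-binding protein of the brain, lay at 9.22 to 12.6 CPM in E1KO-titled libraries and 7.62 to 10.9 CPM in E1WT-titled ones, which overlap (log2 fold 0.21 ± 0.14).

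The spread of Plcl2 ran parallel to a property of the whole libraries. For each library, the Spearman correlation over genes between exon length and log2 CPM relative to the mean of all libraries was 0.22, -0.01, -0.32 and -0.23 in E1KO 1 to 4 and 0.08, -0.26, 0.09 and 0.32 in E1WT 1 to 4. Within each title the 4 libraries ranked by Plcl2 in exactly the order of this correlation. Plcb2, of nearly the same exon length as Plcl2 (6597 and 6626 bp), followed this order in neither title. The 1795 genes with 6 to 8 kb of exon had median log2 deviations of -0.05 to 0.06 across the 8 libraries. The part of exon length in the spread of Plcl2 was not tested. The members' median of 6656.5 bp exceeds that of all genes tested, 4328.5 bp. With the length trend removed from each library, the log2 fold was 0.11 ± 0.10 for Plcl2, -0.96 ± 0.05 for Plcb2, -0.39 ± 0.04 for Plcg1, 0.50 ± 0.11 for Plcb4 and 0.33 ± 0.09 for Plcg2.

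**Figure D2:**
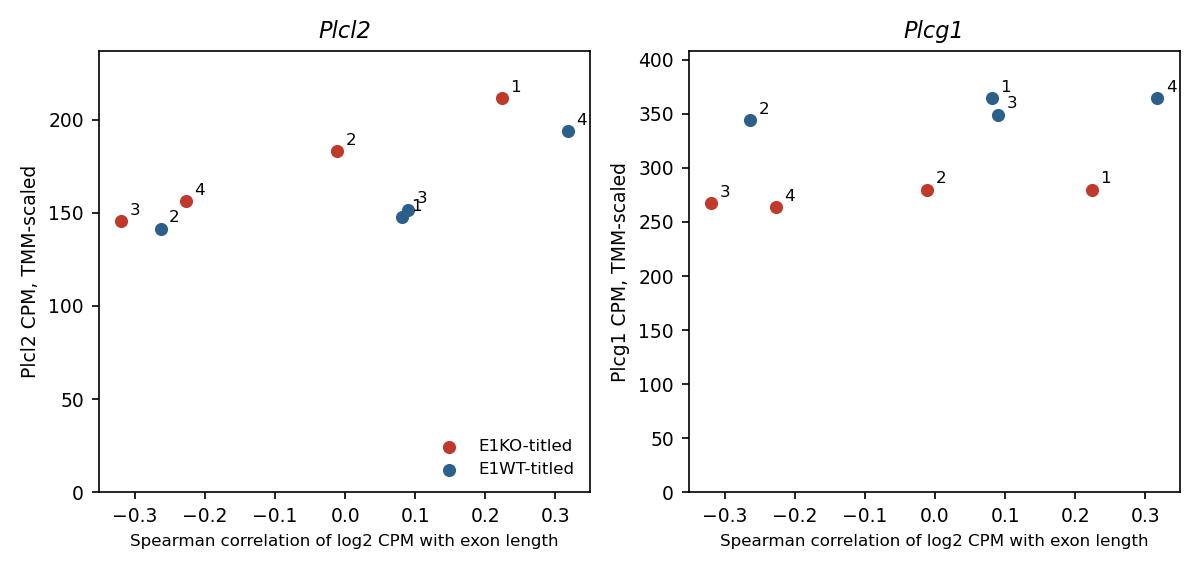
Plcl2 (left) and Plcg1 (right) in CPM in each library, plotted against that library's Spearman correlation over genes of log2 CPM with exon length, with replicate numbers beside the points. Plcl2 orders the libraries of each title as the correlation does, whereas the 2 titles stay apart for Plcg1 at every value of it.

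**Figure D3:**
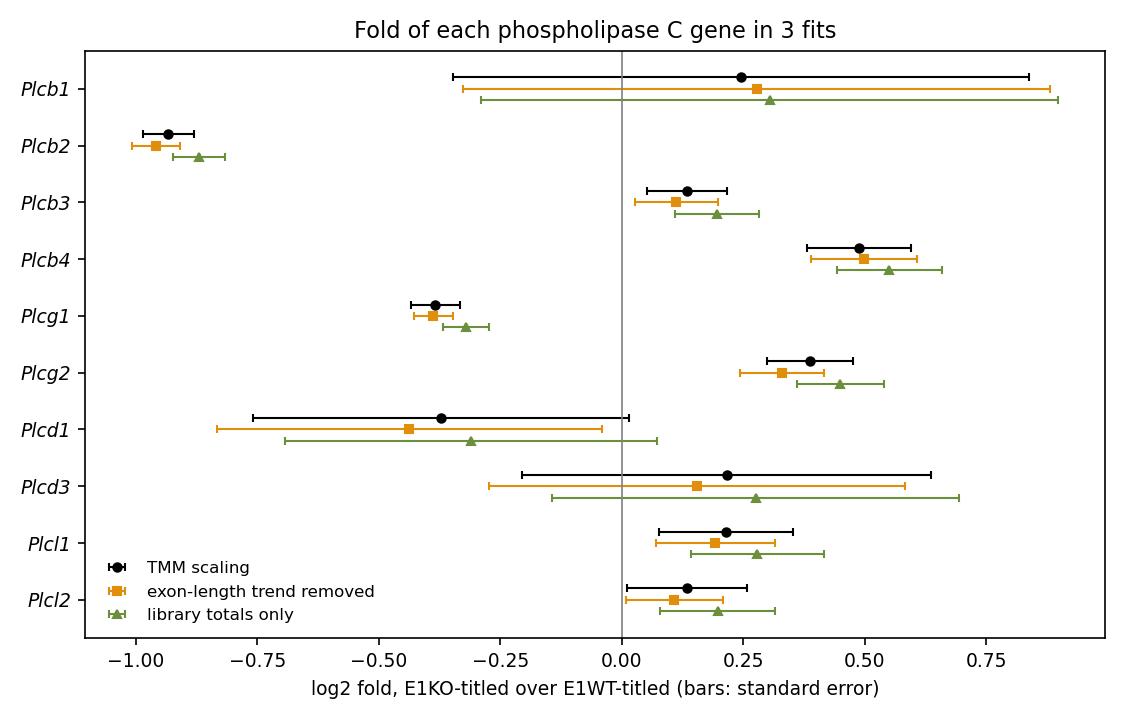
Log2 fold of each phospholipase C gene, E1KO-titled over E1WT-titled libraries, with its standard error, in the fit with TMM scaling (black), with the exon-length trend removed (orange) and with library totals alone (green). The 3 fits lie close together for each gene, with Plcb2 between -0.96 and -0.87 and wide bars for Plcb1, Plcd1 and Plcd3.

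Per kilobase of exon, which allows levels of different genes to be compared, Plcg1 came first in both titles at 34.7 ± 1.08 CPM per kb in E1KO-titled libraries and 45.3 ± 1.33 CPM per kb in E1WT-titled ones. In E1KO-titled libraries Plcl2 followed at 26.3 ± 4.47 and Plcb2 at 14.0 ± 0.665 CPM per kb, and their libraries did not overlap. In E1WT-titled libraries Plcb2 was at 26.8 ± 0.705 and Plcl2 at 24.0 ± 3.61 CPM per kb, with overlapping libraries. Below these 3, the order was the same in both titles. In E1KO-titled libraries Plcg2 had 6.85 CPM per kb, Plcb3 3.06, Plcl1 1.65, Plcb4 0.928, Plcd1 0.226, Plcd3 0.200 and Plcb1 0.037. In E1WT-titled libraries Plcg2 had 5.24 CPM per kb, Plcb3 2.79, Plcl1 1.42, Plcb4 0.662, Plcd1 0.295, Plcd3 0.175 and Plcb1 0.031. Neighbours in this order did not overlap between their libraries, except Plcd1 with Plcd3. With the length of the longest transcript in place of all exons, Plcl2 ranked above Plcb2 in E1WT-titled libraries too (35.8 against 34.3 CPM per kb).

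Expressed as shares of the summed level per kb, Plcg1, Plcl2 and Plcb2 made up 85.3 ± 0.597% of the 10 genes in E1KO-titled and 90.0 ± 0.597% in E1WT-titled libraries. The share of Plcb2 was 16.0 ± 1.19% in E1KO-titled and 25.1 ± 0.922% in E1WT-titled libraries, and that of Plcl2 was 29.7 ± 2.89% in E1KO-titled and 22.4 ± 2.39% in E1WT-titled libraries. Plcg1 held 39.5 ± 1.76% in E1KO-titled and 42.5 ± 1.01% in E1WT-titled libraries, with single libraries that overlap in this measure. Within the beta isoforms, Plcb2 made up 77.7 ± 0.705% in E1KO-titled and 88.5 ± 0.601% in E1WT-titled libraries. Plcg1 exceeded Plcg2 by a ratio of 5.10 ± 0.467 per kb in E1KO-titled and 8.65 ± 0.502 in E1WT-titled libraries. The ratio of Plcb2 to Plcg1 was 0.404 in E1KO-titled and 0.592 in E1WT-titled libraries, so the beta isoform differed more than the gamma isoform. The sum over the 10 genes was 88.0 ± 6.51 CPM per kb in E1KO-titled libraries and 107 ± 4.77 CPM per kb in E1WT-titled ones, and the highest E1KO-titled library, at 95.8 CPM per kb, was below the lowest E1WT-titled one, at 102 CPM per kb.

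**Figure D4:**
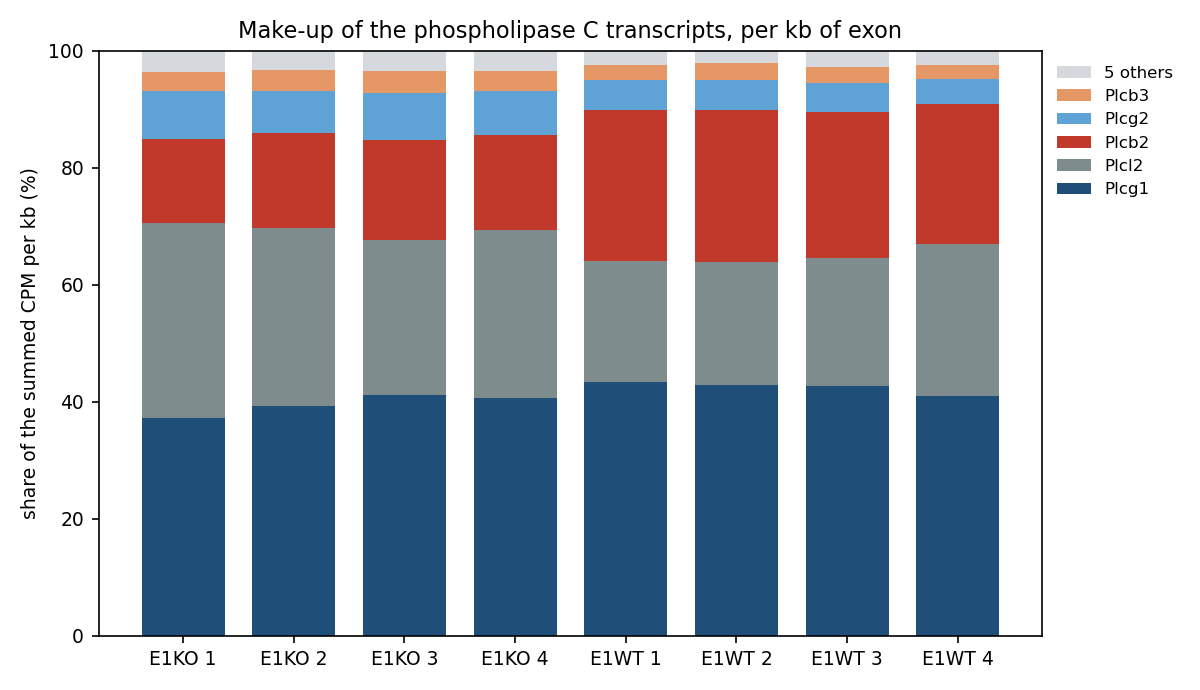
Share of each phospholipase C gene in the summed CPM per kb of exon of the 10 genes, in percent, one bar per library with E1KO-titled libraries on the left. Plcb2 (red) takes 14.3% to 17.1% in E1KO-titled and 24.0% to 26.0% in E1WT-titled libraries.

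By likeness of pattern over the 8 libraries, measured as the root-mean-square difference of log2 CPM centred on each gene's mean among 10429 genes, the nearest to Plcg1 were Dgkd (0.023), Satb1 (0.024) and Tcf7 (0.026), where the median gene was at 0.246. Dgkd is a diacylglycerol kinase, and Satb1 and Tcf7 are transcription factors of naive T cells. Those nearest to Plcb2 were Ehmt2, a histone methyltransferase (0.061), Rbck1, a subunit of a ubiquitin ligase (0.064), and the Y-linked helicase Ddx3y (0.068), against a median of 0.492. Ddx3y stood at 54.3 CPM in E1KO-titled libraries and 108 CPM in E1WT-titled ones. For Plcl2 they were Pik3ap1 (0.054), Klhl24 (0.056) and Supt16 (0.059), against a median of 0.267.

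Of 8 other phospholipase C genes, 6 were tested and 3 were called, all 3 named after their values were seen. Among the 6 tested, 1 was higher (16.7%) and 2 lower (33.3%), against 12.2% and 11.1% of all genes tested. Plcxd2, a relative with only the X part of the catalytic domain, stood at 58.3 ± 2.66 CPM in E1KO-titled libraries and 83.1 ± 4.15 CPM in E1WT-titled ones (log2 fold -0.51 ± 0.06, adjusted p = 0.00012 in edgeR). Plcxd1 of the same kind had 1.41 ± 0.203 CPM in E1KO-titled libraries and 3.07 ± 0.594 CPM in E1WT-titled ones (-1.12 ± 0.21, adjusted p = 0.0032 in edgeR), but shares 1116 bp of exon with Gtpbp6 on the other strand, which stood at 14.8 ± 2.81 CPM in E1KO-titled libraries and 14.6 ± 2.59 CPM in E1WT-titled ones. Plce1, the isoform regulated by Ras proteins, was higher at 1.55 ± 0.461 CPM in E1KO-titled libraries and 0.705 ± 0.319 CPM in E1WT-titled ones (1.14 ± 0.37, adjusted p = 0.045 in edgeR). That call ended without E1KO 1, 3 or 4 or E1WT 2, 3 or 4 (edgeR adjusted p = 0.056 to 0.12) and its libraries overlapped. Plcd4, Plch1 and Plch2 averaged no more than 0.996 CPM in either title and were not called, while Plcxd3, with reads in E1KO 2 alone, was not tested and Plcz1 is listed at 0 in every library.

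The genes around the phospholipase C step were followed in 5 lists with 100 genes, of which 95 were tested. In edgeR, with adjusted p below 0.05 over all genes, 14 rose (14.7%) and 22 fell (23.2%) in E1KO-titled libraries, against 12.2% higher and 11.1% lower of all genes tested, and 59 passed in neither direction. The share that rose is near that of all genes. The median log2 fold was -0.04, against 0.0065 over all genes tested. With library totals in place of TMM scaling, 18 were higher and 15 lower, and with the exon-length trend removed 13 were higher and 32 lower. The calls over all 13333 genes tested moved too. TMM scaling gave 3108 calls (52.2% of them higher), library totals 3303 (68.3% higher) and removal of the length trend 3818 (43.3% higher). Of the 36 called genes of the lists, 19 kept the call when any single library was left out. Where several libraries are named after the word without, each was left out on its own. In the lists, the count of higher genes was 9 without E1KO 2 or 3, 6 without E1KO 4, 8 without E1WT 1 and 7 without E1WT 3. Calls over all genes in these fits numbered 2204 to 2605. In each list the 3 called genes with the smallest p are described first, and called genes beyond them were named after their values were seen. Exons of 10 of the 36 genes share more than 100 bp with another gene, from 104 to 946 bp, where the counts are less certain. These are Pi4ka, Pip4k2c, Gnb2, Gng2, Gng10, Dgka, Dgkd, Dgkz, Itpr3 and Impa1. Shorter overlaps are left out of this count.

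**Figure D5:**
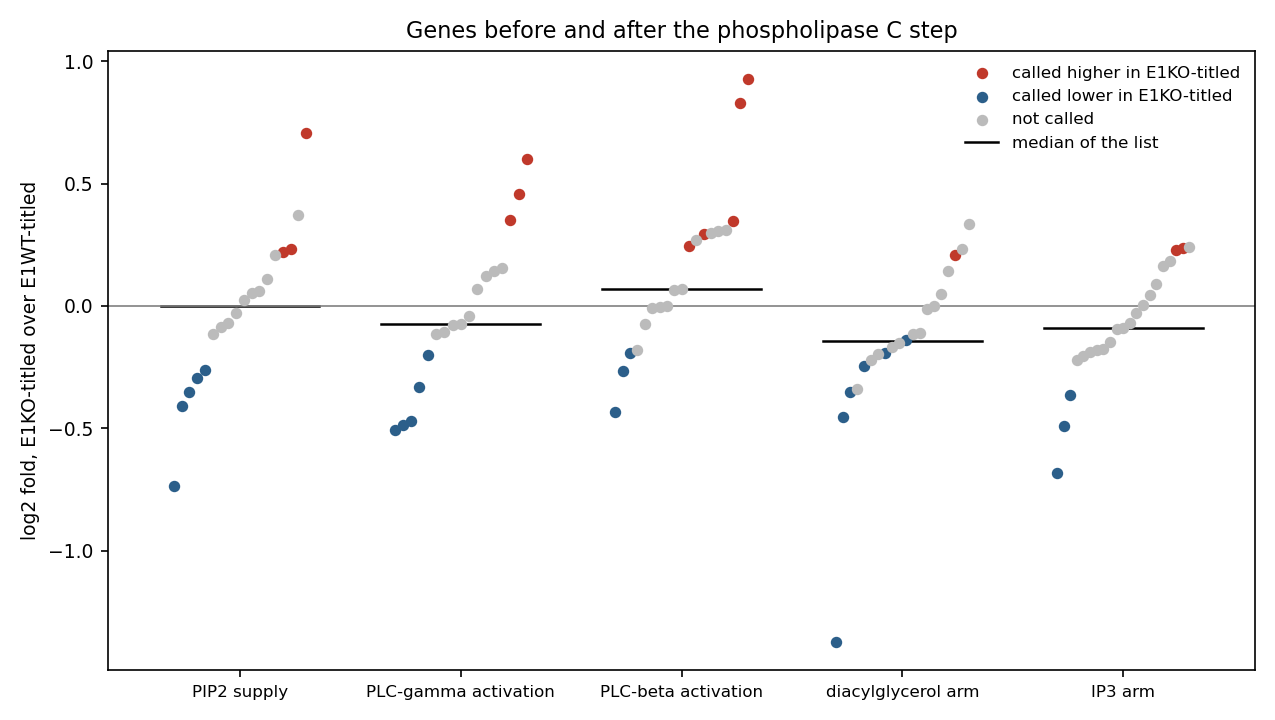
Log2 fold, E1KO-titled over E1WT-titled libraries, of every tested gene in the 5 lists around the phospholipase C step, with genes called higher in red, called lower in blue and not called in grey, and black lines at the list medians. The PLC-beta list has 5 red and 3 blue points, while the diacylglycerol list has 1 red and 6 blue, with Dgka lowest at -1.37.

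Genes that make and deliver the substrate PIP2 were split, with 3 of 18 higher (16.7%) and 5 lower (27.8%). For all genes tested these shares were 12.2% and 11.1%, and the list's median log2 fold was -0.0023. Pitpnm2, a transfer protein for phosphatidylinositol, fell to 185 ± 22.8 CPM in E1KO-titled libraries, against 309 ± 41.2 CPM in E1WT-titled libraries (log2 fold -0.74 ± 0.10, adjusted p = 0.00048 in edgeR). Pi4ka, the kinase that makes PI4P at the plasma membrane, fell by 0.41 ± 0.08 on the log2 scale and the PI5P kinase Pip4k2a by 0.35 ± 0.06 (adjusted p = 0.0025 and 0.0012 in edgeR). Cds2, which makes CDP-diacylglycerol, fell by 0.29. The PI4P kinase Pip5k1c, by contrast, rose by 0.23, and Pip4k2c by 0.22. Pip5k1b (0.71) lost its call without E1KO 2 or 4 or E1WT 1, 2, 3 or 4, and Pitpnc1 (-0.26) without E1KO 2, 3 or 4 or E1WT 1, 3 or 4 (edgeR adjusted p = 0.059 to 0.14 and 0.074 to 0.11). Pip5k1b also lost it in limma-voom and with the length trend removed in edgeR (adjusted p = 0.051 to 0.053), and Pitpnc1 with library totals alone (0.079 in edgeR).

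In the list around PLC-gamma activation, 5 of 17 genes were lower (29.4%, against 11.1% of all genes tested) and 3 higher (17.6%, against 12.2%). The list also holds the ubiquitin ligases Cbl and Cblb, which restrain this signalling rather than switch it on. The median log2 fold was -0.07. The genes called lower included a kinase and an adaptor that T cells use with Plcg1. The adaptors named above, Lat and Lcp2 (SLP-76), were not called (log2 folds -0.04 and -0.07, adjusted p = 0.83 and 0.31 in edgeR). Fyn, Vav1 and Grb2 were not called either. Zap70, the kinase bound to the receptor, fell to 253 ± 5.61 CPM in E1KO-titled libraries, against 360.2 ± 4.76 CPM in E1WT-titled libraries (log2 fold -0.51 ± 0.05, adjusted p = 2.86e-05 in edgeR). Grap2, the adaptor GADS that joins SLP-76 to LAT, fell to 601 ± 24.9 CPM in E1KO-titled libraries, against 833 ± 47.5 CPM in E1WT-titled libraries (-0.47 ± 0.06, adjusted p = 0.00020 in edgeR). Vav2, an exchange factor, rose to 31.5 ± 2.35 CPM in E1KO-titled libraries, against 20.8 ± 1.21 CPM in E1WT-titled libraries (0.60 ± 0.08, adjusted p = 0.00031 in edgeR). Txk, a kinase of the Tec family, fell by 0.33. CD4+ T cell markers were lower in 3 of 8 and higher in 0, with the sums given above, and their part in these values and in those of Plcg1 was not tested. The kinase Tec rose by 0.35. Btk, the Tec family kinase of B cells, was called at 0.46, but not without E1KO 4 or E1WT 1 (edgeR adjusted p = 0.0502 to 0.053). Lck (-0.20) lost its call without E1WT 1 (adjusted p = 0.059) and with library totals alone (0.086 in edgeR). Cbl (-0.48) lost it without E1KO 2, 3 or 4 or E1WT 1, 3 or 4 (edgeR adjusted p = 0.055 to 0.080).

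Of the G proteins and regulators above the beta isoforms, 5 of 19 tested were higher (26.3%) and 3 lower (15.8%). The median log2 fold was 0.07, and of all genes tested 12.2% were higher and 11.1% lower. Gna15, a Gq-class alpha subunit restricted to blood cells, rose to 17.2 ± 1.84 CPM in E1KO-titled libraries, against 9.04 ± 0.542 CPM in E1WT-titled libraries (log2 fold 0.93 ± 0.10, adjusted p = 8.96e-05 in edgeR). Gnaq, the broadly expressed alpha subunit, fell to 11.8 ± 0.760 CPM in E1KO-titled libraries, against 15.9 ± 0.974 CPM in E1WT-titled libraries (-0.43 ± 0.09, adjusted p = 0.0050 in edgeR). Both held in every other setting. Gnb2, a beta subunit, stood at 213 ± 22.2 CPM in E1KO-titled libraries and 167 ± 18.7 CPM in E1WT-titled ones (0.35 ± 0.09, adjusted p = 0.018 in edgeR), but not without E1KO 3 or 4 or E1WT 3 (0.0502 to 0.0615 in edgeR). The myeloid markers given beside Plcg2 were higher in the same libraries as Gna15, and their part was not tested. The other 5 called genes each lost the call without some single library. Gna11 (-0.27) lost it without E1KO 2 or E1WT 1 or 3 (edgeR adjusted p = 0.060 to 0.063), and Gng2 (-0.19) without E1KO 3 or 4 or E1WT 1, 3 or 4 (0.065 to 0.079 in edgeR). Both also lost it with library totals alone (0.059 for Gna11 and 0.097 for Gng2 in edgeR). Gng10 (0.25) lost it without E1KO 2, 3 or 4 or E1WT 1, 3 or 4 (0.059 to 0.10 in edgeR). Rgs10 (0.29) and Rgs18 (0.83), which speed the turn-off of G proteins, lost it without E1KO 3 or 4 or E1WT 1 or 3 and without E1KO 2, 3 or 4 or E1WT 2 or 3 (0.0501 to 0.064 and 0.0502 to 0.071 in edgeR).

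Downstream, the diacylglycerol arm had 6 of 20 tested genes lower (30.0%) and 1 higher (5.0%), with a median log2 fold of -0.14. Among all genes tested, 11.1% were lower and 12.2% higher. Dgka, a kinase that removes diacylglycerol, had the largest difference of all 95 genes, falling to 527 ± 19.9 CPM in E1KO-titled libraries, against 1365 ± 21.4 CPM in E1WT-titled libraries (log2 fold -1.37 ± 0.05, adjusted p = 3.32e-08 in edgeR). Dgkd, the kinase that also tracked Plcg1 most closely, fell to 349.9 ± 10.9 CPM in E1KO-titled libraries, against 446 ± 13.8 CPM in E1WT-titled libraries (-0.35 ± 0.05, adjusted p = 0.00052 in edgeR). Prkcq, the protein kinase C isoform of the T cell synapse, fell by 0.25 ± 0.05 (adjusted p = 0.0043 in edgeR). Dgkz, another diacylglycerol kinase of T cells, had a log2 fold of -0.19 and lost its call with library totals alone (edgeR adjusted p = 0.059). Prkcb (-0.45) lost the call without E1KO 2, 3 or 4 or E1WT 3 (0.052 to 0.065 in edgeR), Prkcd (0.21) without E1KO 3 or E1WT 3 (0.052 to 0.070 in edgeR), and Prkd2 (-0.14) without any 1 of the 8 libraries (0.070 to 0.13 in edgeR). Prkd2 also lost it with library totals alone, with no filter on low counts and without E1KO 1 and E1WT 4 together (0.058 to 0.24 in edgeR). Some genes that remove diacylglycerol and some of those that respond to it were thus among those that fell. The diacylglycerol kinases Dgke (log2 fold 0.05), Dgkg (0.14), Dgkh (-0.22) and Dgkq (-0.17) were not called (adjusted p = 0.24 to 0.79 in edgeR). None of the RasGRP genes (Rasgrp1, Rasgrp2, Rasgrp3 and Rasgrp4) was called. Rasgrp1, the most abundant of them, had a log2 fold of -0.013 (adjusted p = 0.94 in edgeR). Prkca, Prkce and Prkch were not called either.

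The IP3 arm had 3 of 21 lower (14.3%) and 2 higher (9.5%), near the 11.1% and 12.2% of all genes tested. Its median log2 fold was -0.09. Of the IP3 receptors, which release calcium from the endoplasmic reticulum, Itpr3 and Itpr2 were called lower. Itpr1 was not called, and its libraries overlapped (log2 fold -0.19, adjusted p = 0.27 in edgeR). Stim1, Stim2, Orai1, Orai2 and Orai3 were not called either. Itpr3 fell to 267 ± 18.1 CPM in E1KO-titled libraries, against 376 ± 31.9 CPM in E1WT-titled libraries (log2 fold -0.49 ± 0.07, adjusted p = 0.00059 in edgeR). Itpr2 fell to 239 ± 33.7 CPM in E1KO-titled libraries, against 384 ± 61.9 CPM in E1WT-titled libraries (-0.68 ± 0.12, adjusted p = 0.0019 in edgeR). Inpp4b, a phosphatase of inositol lipids, stood at 563 ± 71.8 CPM in E1KO-titled libraries and 725 ± 116 CPM in E1WT-titled ones (-0.37 ± 0.12, adjusted p = 0.040 in edgeR). Its libraries overlapped, and the call ended without E1KO 2, 3 or 4 or E1WT 1, 3 or 4 (0.070 to 0.11 in edgeR) and with library totals alone (0.066 in edgeR). Ipmk (0.23) and Impa1 (0.24), which process inositol phosphates, also overlapped. Ipmk lost the call without any 1 library but E1KO 3 (0.057 to 0.12 in edgeR), and Impa1 without E1KO 2, 3 or 4 or E1WT 1, 3 or 4 (0.085 to 0.12 in edgeR). With no filter on low counts both lost it as well, as did Ipmk with DESeq2 size factors or without E1KO 1 and E1WT 4 together (edgeR adjusted p = 0.057 to 0.13) and Impa1 in limma-voom or with the length trend removed (adjusted p = 0.0502 to 0.089).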

How the data were processed

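RNA of naive CD4+ T cells was made into libraries with an NEBNext Ultra kit and read as 75 bp paired ends, per the labels' protocols. The submitters' processing notes name TopHat2 2.1.0 and HTSeq 0.9.1 with mm10 as genome, and the deposited values are raw counts per gene symbol, whole numbers in every file. Which annotation, strand setting and filters the authors chose is not given in the sources used here. In each file 5 entries stand for no gene (28.2% to 37.0% of all counts), and neither library sizes nor tests include them.

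Libraries were grouped by title. Only the word quadruplicate speaks of replication, not of separate mice, and a p-value therefore measures how these libraries spread, possibly for technical reasons alone. Pairs of libraries of 1 title differed beyond sampling noise (chi-square per degree of freedom 4.20 to 64.4), and each counted as 1 replicate. The members, lists and tests were chosen with earlier results of these data known. Some list members are not reported here, and the lists, sums and counts leave them out.

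Genes were tested with edgeR 4.0.16 (R 4.3.3) by the quasi-likelihood test with TMM scaling, filterByExpr at its defaults (at least 10 counts in enough libraries, 15 in total) and Benjamini-Hochberg adjustment over 13333 genes, and checked on simulated counts. Errors are SD over 4 libraries for CPM and SE for log2 folds. Named genes are the members, the 3 called genes of smallest p in each pathway list and the 3 genes most like each of the 3 members of highest CPM (mean log2 CPM of at least 1, prior count 2). Exon lengths and positions come from GENCODE M21 on GRCm38 (mm10), in which 23334 symbols matched directly, 643 by an older symbol and 44 by several, while 400 did not match. The alternatives were other scalings, other filters, limma-voom (limma 3.58.1), DESeq2 1.42.0, a replicate block, removal of an exon-length trend and libraries left out. Figures were drawn with matplotlib.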

Additional observations from a re-analysis of the deposited data

How the results depend on the processing

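With library totals alone the log2 fold was -0.87 for Plcb2 and -0.32 for Plcg1. Plcb1, not called, ran from -0.09 to 0.57. Of the 15 pathway genes named by rule, 13 kept their call throughout, the exceptions being Gnb2 and Inpp4b. The count of higher pathway genes was 14, and 7 with the replicate number as a block, and that of lower genes was 32 with the exon-length trend removed. With the block, 2156 of all genes were called, 53.4% of them higher. Leaving out single libraries gave 6 to 13 higher pathway genes, and 15 to 24 lower ones where all libraries gave 22. The same fits called 2204 to 3213 of all genes. Libraries with the same number did not deviate together (correlation of deviations -0.10 to 0.01, against -0.32 to 0.26 for different numbers), so the numbers pair nothing. Over all genes, 3108 were called, and 2156 to 3818 under the alternatives. Higher genes made up 52.2% of calls with TMM scaling, 68.3% with library totals alone, where the median log2 fold of all genes was 0.069, and 43.3% of the 3818 calls with the exon-length trend removed. Lengths were known for 99.1% of tested genes. In E1WT-titled libraries, the length of the longest transcript in place of all exons gave 69.6 in place of 45.3 CPM per kb for Plcg1.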
